A study of Gossypium hirsutum with 4 samples.

Results

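The regions described here are peaks of the D53 immunoprecipitate on the 13 A-subgenome chromosomes of upland cotton (Gossypium hirsutum). They overlap peaks of the other immunoprecipitate of the series, labelled B. D53 peaks on A01 to A13 were kept where they had at least 1 bp in common with a peak of the B list. Peaks with their midpoint in any of 3 stretches dense with peaks were left out: A05 from 62.1 to 62.4 Mb, A07 from 66.3 to 66.4 Mb and A07 from 68.6 to 68.9 Mb. These held 164 further shared D53 peaks. The rule left 2321 shared peaks, out of 6299 D53 peaks on the A chromosomes outside the dense stretches and 18015 D53 peaks in the whole list. They covered 999 kb. They are called shared A peaks below.

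Leaves were profiled by ChIP-seq, in which DNA cross-linked to a protein is pulled down with an antibody and sequenced. The samples were a D53 immunoprecipitate (IP) with its own input chromatin and a B IP with its own input, 1 library each, and all 4 carry FLAG, a short epitope tag, as the antibody label. The labels give no genotype, treatment, plant age or promoter for either IP, do not say what B is, and mention no pull-down from untagged plants. One list of peaks was deposited for each IP, in which every peak has a position and a whole-number score. The score is the authors' own value and its definition is not given, so D53 and B scores are set side by side but not read as amounts of bound protein.

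D53 belongs to the SMXL family of repressors of strigolactone signalling. When the hormone is perceived, the protein is tagged by a ubiquitin ligase and degraded. While present it holds back target genes together with TOPLESS-type corepressors, and work in Arabidopsis has shown that SMXL proteins can also bind DNA themselves. Upland cotton is an allotetraploid that combines an A and a D subgenome. The A chromosomes are longer and richer in retrotransposons, and in both subgenomes genes are denser towards chromosome ends than in the middle. The gene table at hand belongs to another assembly: its genes reach 119.8 Mb on A01, for example, while the peaks end at 99.8 Mb. No peak was therefore assigned to a gene and no sequence is shown.

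The members were chosen by the overlap of D53 and B peaks, which depends on both lists' calls, so their number, scores and widths are given as a description. Shared peaks made up 36.8% of D53 peaks on the A chromosomes outside the dense stretches (95% Wilson interval 35.7 to 38.0), against 44.0% of the whole D53 list. Seen from the other list, 2359 of 6457 B peaks on the same chromosomes were partners, or 36.5% (35.4 to 37.7), against 41.3% of the whole B list. Both whole lists also hold the D chromosomes, the dense stretches and scaffolds outside the chromosomes. On the D chromosomes outside dense stretches the share was 31.8% in each list. Most shared A peaks, 2246, had a single B partner, 71 had 2 and 4 had 3. In 2168 pairs neither peak touched a second one. Intervals throughout reflect the number of peaks counted and nothing else, and they treat adjacent peaks as independent, which they need not be. With 1 library per IP no test between D53 and B was possible.

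The rule required an overlap with a B peak, so the closeness of the paired peaks is given as a description. The longest overlap with a partner had a median of 241 bp (interval of the median 237 to 246), and midpoints lay a median of 50.5 bp apart. In 984 shared A peaks, 42.4%, either the D53 or the B peak lay wholly inside the other, and in 2163, 93.2%, the overlap covered at least 50% of the shorter peak. Few overlaps were close to the 1 bp limit. Stricter rules kept fewer shared A peaks, 1723 with at least 50% of both peaks covered and 1979 with midpoints at most 200 bp apart. Overlaps of exactly 1 bp included A02 65314950 to 65315517, with a D53 score of 4 and a B score of 7, A03 27143721 to 27144051, with scores of 9 in D53 and 14 in B, and A04 827927 to 828329, with scores of 7 in D53 and 7 in B. Just outside the rule were A02 31377104 to 31377383, which abutted its nearest B peak with a gap of 0 bp, A10 97441624 to 97441969, with a gap of 2 bp, and A03 2466743 to 2467063, with a gap of 3 bp. Their D53 scores were 5, 5 and 9. The lists do not say whether starts count from 0, as taken here, or from 1, in which case the abutting pair would share 1 bp. Overlaps under 50 bp numbered 48, and 28 unshared D53 peaks had a gap under 50 bp. The unshared peaks lay a median of 40.8 kb from the nearest B peak.

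Shared A peaks occurred on every A chromosome at 1.55 to 2.43 per Mb of span, where the span is the highest peak end of either list. A01 held the most, 242 peaks at 2.43 per Mb. A13 held the fewest, 124 peaks at 1.55 per Mb, and A05 was close to it with 146 peaks at 1.59 per Mb. The average was 2.00 ± 0.24 per Mb on the A chromosomes and 1.16 ± 0.17 on the D chromosomes (SD, 13 chromosomes each; 901 shared D53 peaks on D outside dense stretches). Each A chromosome had a higher density than the D chromosome of the same number, and the lowest A value, 1.55, lay above the highest D value, 1.45.

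The A chromosomes held 72.0% (70.5 to 73.6) of the shared peaks on chromosomes and 67.3% (66.1 to 68.5) of the unshared ones, with 60.0% of the span. The share of D53 peaks that had a B partner was 36.8% on A and 31.8% on D (30.1 to 33.5), and it was higher on A in 12 of the 13 same-numbered pairs, A13 being the exception. A13 at 30.6% and A05 at 31.6% were lowest, and A08 at 40.0% was highest. D53 scores differed between the subgenomes too, with a median of 13 for shared A peaks and 10 for shared D peaks. Within bands of D53 score the shares were close: 6.36% on A and 5.37% on D for scores of 3 to 4, 27.6% on A and 28.99% on D for 5 to 9, 62.1% on A and 62.8% on D for 10 to 19, 91.2% on A and 91.7% on D for 20 to 49, and 93.9% on A and 94.4% on D from 50 upwards. Weighting the D bands by the number of A peaks in each gave a D share of 37.3%, beside 36.8% on A. Chromosomes are not replicates of a condition, and the differences were not tested.

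**Figure D1:**
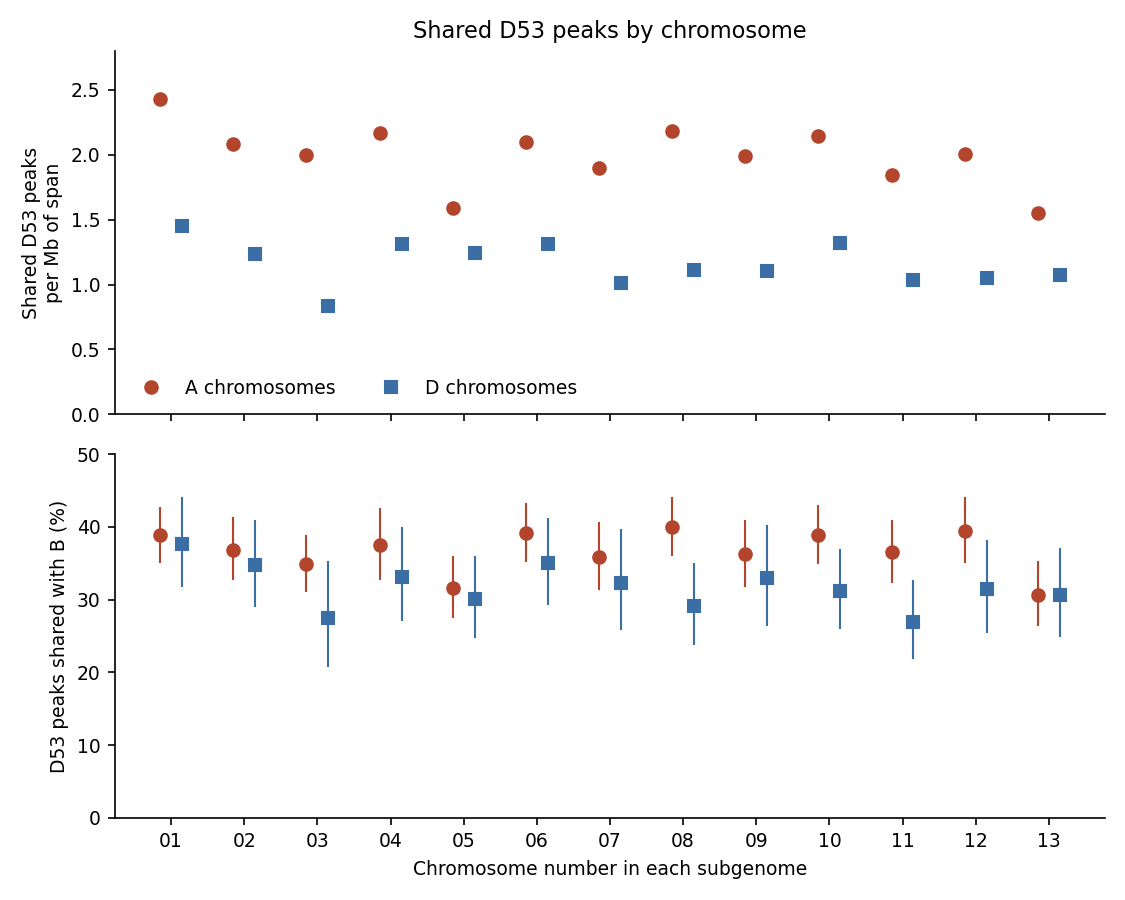
Shared D53 peaks per Mb of span (upper panel) and the percentage of D53 peaks that overlap a B peak (lower panel, bars are 95% Wilson intervals) for each A chromosome (circles) and the D chromosome of the same number (squares), without dense stretches. Every A density, 1.55 to 2.43, lies above every D density, 0.84 to 1.45, while the percentages of most pairs have overlapping intervals.

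Apart from leaving out the 3 dense stretches, the rule did not use position along the chromosome. The central 50% of the span held 65.3% of shared A peaks (95% Wilson interval 63.4 to 67.2) and 53.2% of unshared D53 peaks on the same chromosomes (51.7 to 54.8). With the 3 dense stretches kept in, it held 64.3% of the shared peaks. The share was higher for shared peaks on 13 of 13 A chromosomes, and among them it ran from 57.8% on A02 and 57.9% on A06 to 74.9% on A12 and 77.2% on A04. When each span was divided into 10 equal segments, segments 1, 2, 9 and 10 at the ends held 139, 139, 153 and 128 shared A peaks, and segments 5 and 6 in the middle held 333 and 331. Unshared peaks were spread more evenly, with 433 in segment 1 and 412 in segment 10, 341 and 306 in segments 2 and 9, and 432 and 463 in segments 5 and 6. In all, 24.3% of the D53 peaks in segment 1 and 23.7% of those in segment 10 were shared, against 43.5% in segment 5 and 44.8% in segment 8. On the D chromosomes the central 50% held 60.9% of shared (57.7 to 64.1) and 48.2% of unshared D53 peaks (45.9 to 50.4).

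**Figure D2:**
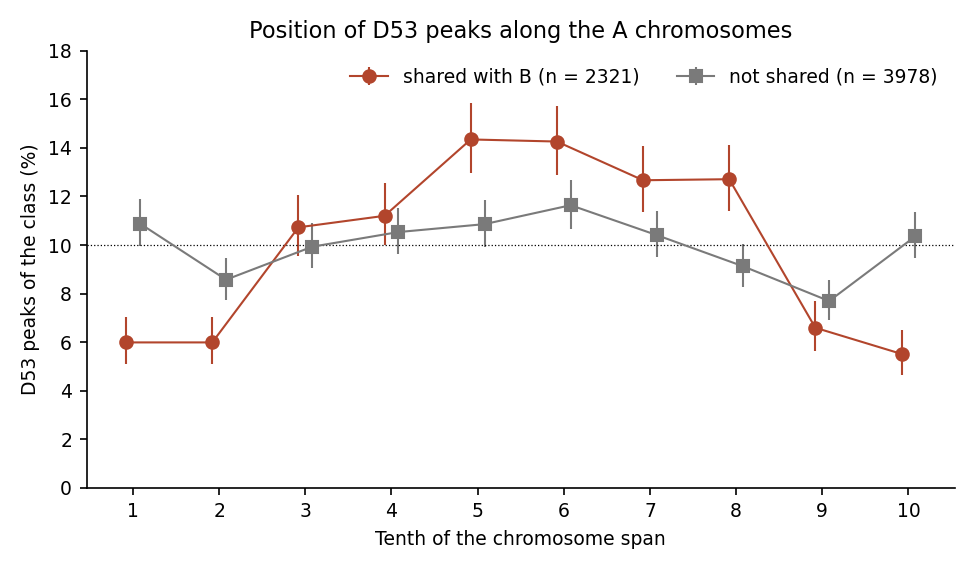
Percentage of shared (circles) and unshared (squares) D53 peaks in each of 10 equal segments of the chromosome span, summed over the 13 A chromosomes, with 95% Wilson intervals; the dotted line marks an even spread. Shared peaks fall to 5.51% to 6.59% in the 4 outer segments and reach 14.3% in the middle, while unshared peaks stay between 7.69% and 11.6%.

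This central position went with the D53 score. Of shared A peaks with a score of 10 to 49, 76.3% lay in the central 50% of the span (73.9 to 78.5, n = 1317). Of those with a score under 10, 49.3% did (45.9 to 52.8, n = 803), and from 50 upwards 57.2% (50.3 to 63.9, n = 201). The middle band was more central than the low band on 13 of 13 A chromosomes and on 13 of 13 D chromosomes. In the middle band segments 1 and 10 held 29 and 25 peaks, against 220 and 212 in segments 5 and 6. In the low band segments 1 and 10 held 98 and 89 peaks, close to the 90 and 93 of segments 5 and 6. The strongest shared A peaks were spread along the whole span, and segment 8 held the most of them, 35 of 201. Of these 35, 8 belong to a single group of 25253 bp on A09, described below, and segment 6 held 26.

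Within a band of D53 score, shared and unshared peaks were placed much alike, apart from the weakest. For scores of 5 to 9 the central share was 52.2% for shared A peaks (48.4 to 55.9) and 52.0% for unshared ones (49.7 to 54.2). For 10 to 19 it was 75.4% for shared (72.2 to 78.3) and 72.4% for unshared peaks (68.1 to 76.3). For 20 to 49 it was 77.5% (73.9 to 80.8) for shared peaks and 67.3% for unshared ones, of which there were only 55 (54.1 to 78.2). For scores of 3 to 4 the order was opposite, with 31.5% (23.6 to 40.7) of 111 shared and 48.8% (46.4 to 51.2) of 1635 unshared peaks. Weighting the unshared bands by the number of shared peaks in each gave 62.3%, beside 65.3% for the shared peaks and 53.2% for the unshared ones without weighting.

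The B scores gave a similar order. Among the B partners of shared A peaks, the central 50% held 39.1% of those with a B score under 10 (34.3 to 44.1, n = 381), 65.0% from 10 to 19 (61.5 to 68.3), 79.3% from 20 to 49 (76.4 to 82.0), 66.3% from 50 to 99 (60.3 to 71.7) and 54.5% from 100 upwards (46.4 to 62.4, n = 145). Unshared B peaks on A had 46.8%, 62.6% and 68.4% in the first 3 of these bands. B scores belong to the same peaks as the D53 scores here, so the partners are not independent of the D53 result.

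**Figure D3:**
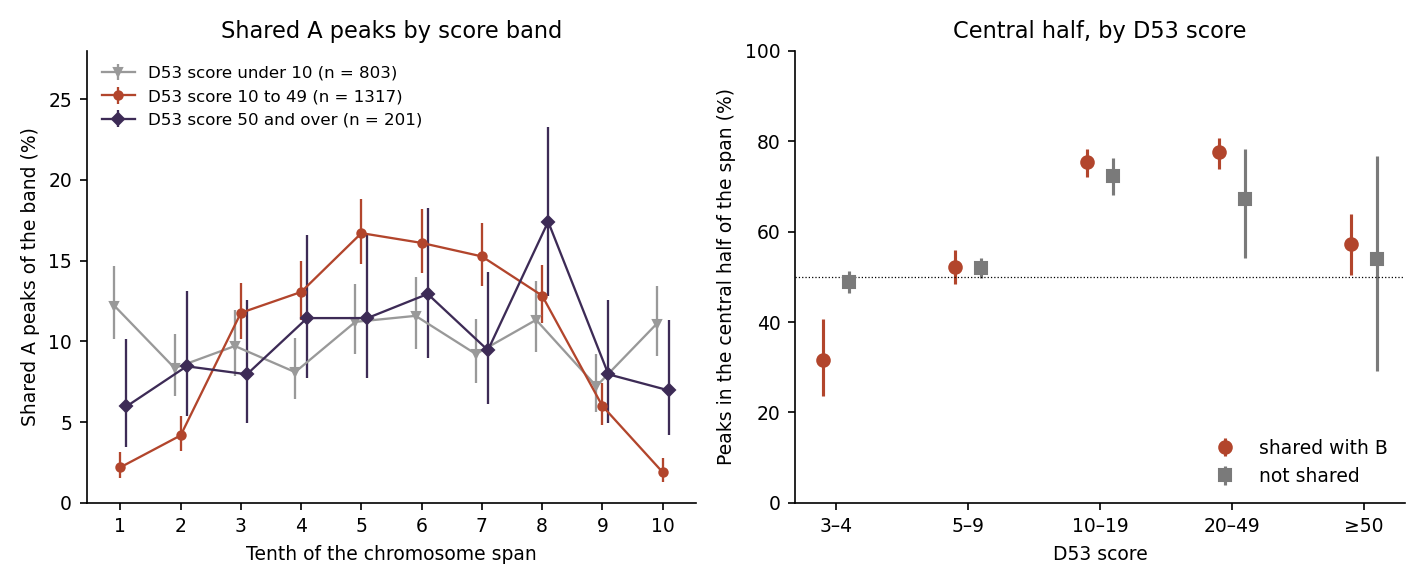
Left, shared A peaks by segment of the span for D53 scores under 10 (triangles), 10 to 49 (circles) and 50 or more (diamonds), as a percentage of each band. Right, percentage of shared (circles) and unshared (squares) D53 peaks of the A chromosomes in the central 50% of the span by D53 score, the dotted line marking 50%; bars are 95% Wilson intervals, and the values from 10 to 49 stand highest in both classes.

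Shared A peaks had a median width of 321 bp (interval 313 to 331), their B partners 318 bp (310 to 328), and unshared D53 peaks of the A chromosomes 245 bp (243 to 248). Within like bands of D53 score the shared peaks were also the wider ones, with medians of 295 bp for shared and 262 bp for unshared peaks at D53 scores of 5 to 9, 324 bp for shared and 270 bp for unshared peaks at 10 to 19, and 379 bp for shared and 254 bp for unshared peaks at 20 to 49. Width bears on the rule itself, since a wider peak can touch a partner over more positions. The median fell to 351 bp from a score of 50 upwards, with an interval of 316 to 382 that overlaps the 356 to 399 of the band below. Peaks of at least 1000 bp numbered 121, of which 83 had a score of 20 to 49. They had median scores of 29 in D53 and 44 in B. The share of shared A peaks that were this wide was lowest in segment 1, with 1 of 139, and segment 2, with 2 of 139, and highest in segment 9, with 13 of 153 (8.50%). Segment 10 held 5 of 128. The widest was A04 25726777 to 25730361, 3585 bp wide, with scores of 37 in D53 and 39 in B. The next were A08 66214981 to 66218254, with 28 in D53 and 47 in B, and A01 58536804 to 58539642, with 65 in D53 and 116 in B. The narrowest were 199 bp wide, the lowest width in the D53 list for the A chromosomes, at A01 69045617 to 69045815, A04 27399804 to 27400002 and A10 75515366 to 75515564.

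The D53 scores of shared A peaks ran from 3 to 362 with a median of 13 (quartiles 8 and 24), and those of their longest-overlapping B partners from 4 to 528 with a median of 20 (quartiles 11 and 39). Unshared D53 peaks on A had a median of 5, and unshared B peaks 8. On the log2 scale D53 over B score had a median of -0.58 (SD 0.49 over peaks), the same to 2 decimals as on the D chromosomes, and the 13 chromosome medians lay between -0.69 on A13 and -0.50 on A07. Scores are whole numbers, so low scores allow only a few ratios.

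The ratio was flat over most of the range and shifted at the top. In pairs without a second partner the median log2 ratio was -0.58 for a geometric mean of both scores under 10 (624 pairs) and for 10 to 20 (679 pairs), -0.65 (interval -0.69 to -0.60) for 20 to 50 (622 pairs) and -0.63 (-0.73 to -0.56) for 50 to 100 (153 pairs). From 100 upwards it was 0.07 (-0.02 to 0.16, 90 pairs), and D53 scored at least as high as B in 52 of these 90 pairs. Among all 2168 such pairs D53 scored at least as high in 282, or 13.01% (11.7 to 14.5), against 10.3% over the pairs of the whole lists. The D chromosomes outside dense stretches gave 107 of 826 pairs, or 12.95% (10.8 to 15.4), close to the A value. On the D chromosomes the ratio of the strongest pairs was -0.16 (-0.45 to 0.16, 45 pairs), an interval that overlaps the one on A. D53 scored at least as high as B in 17 of these 45 D pairs. With the dense stretches kept in, the median on A for the strongest peaks was -0.83.

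**Figure D4:**
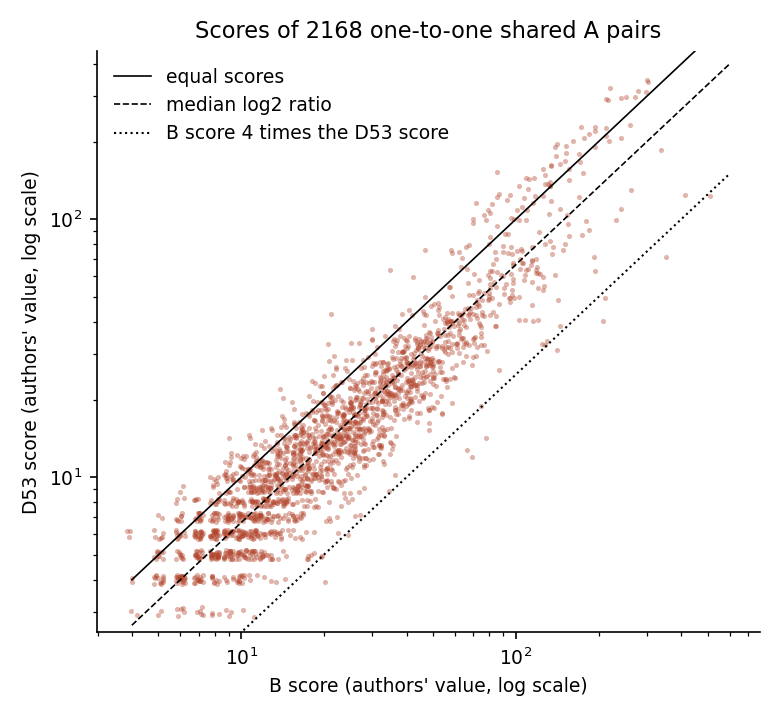
D53 score against B score of the 2168 shared A pairs in which neither peak has a second partner, on log axes, with points moved slightly at random to separate ties. Most points follow the dashed line at the median log2 ratio of -0.58; the strongest bend up to the line of equal scores, and a few lie near the dotted line where B scored 4 times as high.

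Of the 13 peaks of highest D53 score, 1 per chromosome, 10 scored higher in D53 than in B. Picking by D53 score in itself favours peaks that score higher in D53, so this count is a description only. The strongest was A11 64560071 to 64561637, 1567 bp wide, with scores of 362 in D53 and 309 in B. A10 7662712 to 7663383 followed with 351 in D53 and 302 in B, and A02 71682754 to 71683268 with 322 in D53 and 293 in B. A09 59231538 to 59232065 scored 298 in D53 and 213 in B, A04 59645521 to 59646196 scored 288 in D53 and 267 in B, and A01 26424448 to 26425061 scored 280 in D53 and 225 in B. These 6 peaks lay anywhere from 7.61% to 94.9% of the way along the span.

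The other chromosomes peaked lower. A05 7468043 to 7468813 scored 253 in D53 and overlapped 2 B peaks that scored 122 and 187. A12 3318963 to 3319779 scored 180 and also overlapped 2 B peaks, scoring 135 and 130. A06 83678984 to 83679309 scored 184 in D53 and 158 in B, and A08 15459101 to 15459410 scored 143 in D53 and 138 in B. The exceptions with a higher B score were A03 30391427 to 30391869, with 230 in D53 and 263 in B, A07 39523676 to 39523932, with 99 in D53 and 150 in B, and A13 55766221 to 55766518, with 186 in D53 and 329 in B. A07 held a single shared A peak with a geometric mean of at least 100, while A12 held 19, A11 16 and A03 11.

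Pairs far from the common ratio were few. A ratio more than 2 times above the median of all pairs without a second partner occurred in 61 of 2168 shared A pairs, 2.81% (2.20 to 3.60), against 2.08% of the whole lists. The share on the D chromosomes outside dense stretches was 2.30% (1.48 to 3.56), 19 of 826 pairs. A03 held 12 of the 61 and A11 held 9. The 5 highest ratios among pairs with a geometric mean of at least 20 were 0.96 at A03 41974250 to 41974628, with scores of 66 in D53 and 34 in B, 0.90 at A11 54608877 to 54609845, with 41 in D53 and 22 in B, 0.80 at A03 30382872 to 30383253, with 148 in D53 and 85 in B, 0.77 at A03 78035951 to 78036259, with 34 in D53 and 20 in B, and 0.67 at A08 32505767 to 32506001, with 75 in D53 and 47 in B. The A11 peak was 969 bp wide and its B partner 254 bp, so a peak is compared with a shorter one there.

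A ratio more than 2 times below that median occurred in 36 pairs, 1.66% (1.202 to 2.29), against 11.8% of the whole lists. The whole lists, with 885 such pairs among 7506, also include the D chromosomes, all dense stretches and scaffolds outside the chromosomes. The 3 stretches left out here, whose low ratios are given below, hold 164 shared peaks and so only a part of the 885. The 2 shares are therefore not like for like, and where the other pairs lie was not examined. The D chromosomes outside dense stretches had 28 of 826 such pairs, 3.39% (2.36 to 4.86). Of the 36 pairs on A, 13 lay in 3 short patches, and 20 of the other 23 had a D53 score of at most 10. The patches were described after their values were seen. On A08, 5 shared peaks between 13502501 and 13539546, a stretch of 37.0 kb, scored 14 to 34 in D53 and 79 to 136 in B, with log2 ratios from -2.50 to -1.92, and no other shared peak lay among them. On A05, 3 shared peaks between 62058920 and 62098679 scored 12, 13 and 51 in D53 and 69, 67 and 218 in B. They adjoin the dense stretch that begins at 62100001. The remaining patch is the A12 group described next. The 164 shared peaks of the left-out stretches had a median ratio of -1.97, and the 3 stretches gave -2.00, -1.93 and -1.97. The 5 lowest ratios among the stronger pairs all came from these patches: -2.52 and -2.37 on A05, -2.50 on A08, and -2.38 and -2.34 on A12.

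Shared A peaks were unevenly spaced. The median distance to the next one was 250.02 kb, with 270 of 2308 distances under 1 kb and 337 over 1 Mb. Taking peaks at most 10 kb apart as a group, 1479 stood alone and 842, or 36.3%, fell into 358 groups, of which 273 were pairs and 59 held 3 peaks. Grouped peaks were similar to lone ones in score, with median D53 scores of 14 for grouped (13 to 15) and 13 for lone peaks (12 to 13), and median B scores of 22 for grouped and 19 for lone peaks. The central 50% of the span held 68.4% of them (65.2 to 71.5) and 63.6% of the lone peaks (61.1 to 66.0), with intervals that touch. Groups of 5 numbered 4, and the largest groups held 8 and 11 peaks.

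The largest group lay on A12 from 41323162 to 41340727 and held 11 shared peaks in 17566 bp. Their D53 scores were 19 to 121 with a median of 48. Counted per D53 peak, the B scores of the partners were 44 to 528 with a median of 237. A B peak that spans 2 D53 peaks counts 2 times there. All 11 shared peaks scored lower in D53 than in B. The median log2 ratio was -2.13, and the strongest, 41326211 to 41326679, scored 121 in D53 and 528 in B. The 100 kb window around the group held 11 D53 peaks but only 9 B peaks, 1 short of the 10 in each list that define a dense stretch. Some B peaks there were long: the B peaks at 41327207 to 41328920 and 41339477 to 41340760 each spanned 2 D53 peaks.

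The next group lay on A09 from 59219424 to 59244676, with 8 peaks in 25253 bp. Its D53 scores were 72 to 298 with a median of 111 and the B scores of the longest-overlapping partners 60 to 213 with a median of 110.5. The median log2 ratio over these partners was 0.26. The 1576 bp peak at 59234034 to 59235609, with a D53 score of 296, was split into 3 peaks in the B list, which scored 107, 422 and 121, the longest overlap being with the one that scored 107. On A03 from 30411875 to 30427772, 5 shared peaks scored 200, 220, 213, 114 and 164 in D53 and 160, 192, 176, 90 and 165 in B. Their median ratio of 0.28 resembles that on A09 and not the -2.13 on A12. The other groups of 5, on A06 from 49568877 to 49573516 and on A08 from 74180902 to 74186571 and from 76743170 to 76750139, were weak, with D53 medians of 12, 10 and 15. They had ratios of -1.15, -0.54 and -0.35.

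**Figure D5:**
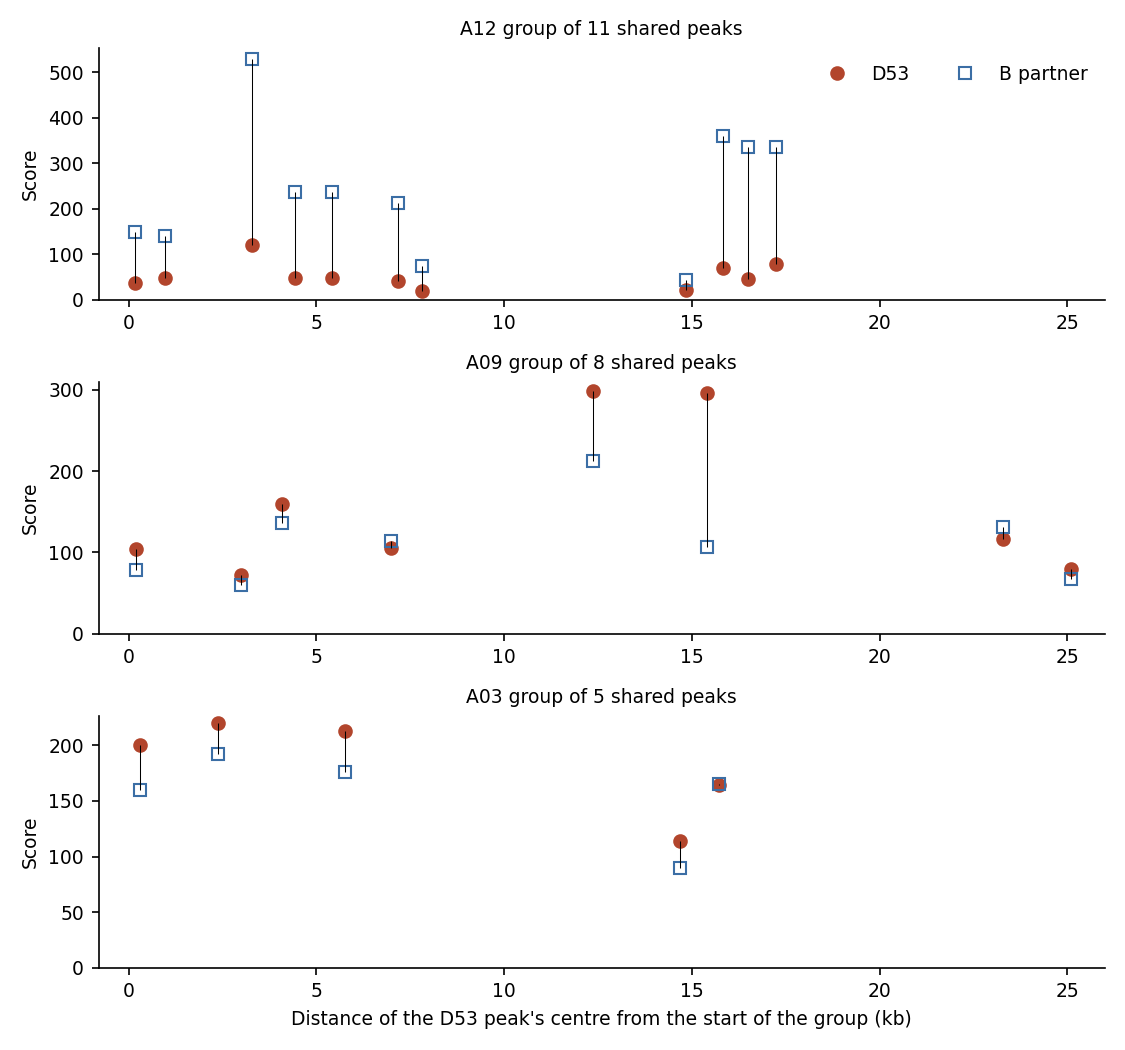
D53 scores (filled circles) and scores of the longest-overlapping B partner (open squares) of the shared peaks in the groups of 11 on A12, 8 on A09 and 5 on A03, against the distance of the D53 peak's centre from the start of its group in kb. On A12 every B score lies above its D53 score, while on A09 and A03 the D53 score is the higher one in 6 of 8 and 4 of 5 peaks.

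Of the 100 shared A peaks with a geometric mean of at least 100, 43 had another within 100 kb. By ratio, 74 of the 100 were above -0.5, with a median of 0.18, 17 lay between -1.5 and -0.5, and 9 were below -1.5, with a median of -2.13. The 74 were spread over 12 chromosomes from 2.25% to 97.3% of the span, with 48.6% of them in the central 50%. The 9 were on A05, A08 and A12 alone, between 47.3% and 67.5% of the span, and 6 of them were on A12.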

How the data were processed

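The authors deposited 1 peak list per IP, with no header. Peaks of an IP were called against the input of the same label, per the names the authors deposited for the peaks, with no pooling of libraries. The deposited value of each peak was handled as a score. It was a whole number throughout, and its definition, the peak caller, its threshold, the aligner and the genome build are not given in the sources used here. No file gives the depth of any of the 4 libraries. Unlike depth or thresholds would shift scores and sharing.

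Starts were taken as counted from 0, as in BED files, and are printed from 1. Peaks were shared from 1 bp of overlap. A peak with several partners was given the score of the one it overlapped longest. Dense stretches are joined 100 kb windows with at least 10 peaks in each list. Shares carry 95% Wilson intervals, and medians carry exact order-statistic intervals. The shared set was identical to that of bedtools 2.31.1, and the functions were tested on simulated data. Scripts ran in Python 3.11.15 with pandas 2.3.3 and NumPy 2.4.6. Intervals came from SciPy 1.17.1, figures from matplotlib 3.10.9.

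The members, bands and lists were chosen with earlier results of these data known. Peaks were named by rule: the highest D53 score per chromosome, the 5 highest and 5 lowest ratios at a geometric mean of at least 20, the 3 widest and narrowest, the 3 nearest either side of the overlap rule, and the 3 largest groups; others were picked for their values. Alternatives covered the overlap rule, scores, partners, dense stretches and merging.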

Additional observations from a re-analysis of the deposited data

How the results depend on the processing

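The results were recomputed under 8 settings, and 66 of 95 values stayed within the interval of the reported value, or within 1.5 times for counts. The number of shared A peaks and their density left that range only with both scores at least 10, at 1496 and 1.29 per Mb. That setting also gave a share of 73.3%, median scores of 20 and 31, a ratio of -0.56, 73.9% in the central 50%, a width of 345 bp and a distance of 323.7 kb. With at least 50% of both peaks covered the share was 27.4%, the median scores 15 and 24, the central share 67.4% (53.4% for scores under 10), the width 312 bp and the distance 331.9 kb. The share was 34.4% with 50% of the shorter peak covered, 31.4% with midpoints at most 200 bp apart (width 310 bp, distance 301.7 kb) and 34.4% for pairs without a second partner (distance 273 kb). With dense stretches kept in it was 38.4%, with a median B score of 22, a ratio of -0.64, a distance of 210.4 kb, and a ratio of -0.83 in place of 0.06 for the strongest peaks, a change of sign. Merging peaks at most 1000 bp apart gave a width of 368 bp and a distance of 318.95 kb. The narrower rules keep fewer pairs by construction. The central share of peaks scoring 10 to 49 stayed between 74.6% and 76.5%. Leaving out the A12 group and 100 kb around the left-out stretches, chosen after seeing the data, moved no value beyond its range. No paired analysis was possible because D53 and B share no replicate number and the lists hold no per-library counts. Leaving out a replicate was not possible with 1 library per group, and the unknown depth limits every statement on missing partners.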

Other observations

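Some long stretches of A chromosome held no shared peak, with unshared peaks of both lists in them. They were picked as the 5 longest distances between shared peaks, so the lack of overlap within them follows from the choice. Unshared peaks were the majority on the A chromosomes outside the dense stretches, 3978 of 6299 D53 peaks. The longest, on A13 from 68043062 to 76607961, ran over 8.56 Mb and held 26 D53 peaks and 20 B peaks, none of them overlapping. On A04 from 50076828 to 58391982, 8.32 Mb held 18 D53 and 22 B peaks, and a further stretch of A13 from 56263133 to 63811852, 7.55 Mb long, held 14 D53 and 15 B peaks. The others were on A08 from 5457238 to 12983017, with 26 D53 and 25 B peaks, and on A03 from 5640053 to 12500933, with 25 D53 and 12 B peaks.

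Counted in windows of 1 Mb, 293 of 1165 windows (25.2%) held no shared A peak, 287 held 1, 460 held 2 to 4, 116 held 5 to 9 and 9 held 10 or more. The fullest, A12 from 41 to 42 Mb, held 13 and contains the A12 group. It had median scores of 46 in D53 and 212 in B. The other 8 windows had D53 medians of 13 to 22 and median log2 ratios between -0.95 and -0.41, so only the A12 window had the low ratio.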
